A study of Arabidopsis thaliana with 80 samples.

Results

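Heat shock factors and the chaperones they control were followed in Arabidopsis thaliana rosettes from an outdoor garden that all plants shared. The set holds 40 genes of the 33602 in the table, matched by locus: 16 heat shock factor genes, 5 large chaperones, 13 small heat shock proteins and 6 partners. Rosettes of 4 accessions were sampled, the natural lines Bon, Moj and Vel from southern Spain and the laboratory line Col-0, and the labels name no transgene or treatment. Tissue came from an afternoon window that the labels call evening and from a morning window, at up to 4 collections named ex1 to ex4. Bon and Moj were compared in ex1 to ex3, and Vel and Col-0 in ex1 to ex4. Each library is a pool of 5 plants from 1 garden, so a p-value measures the spread between pools. Roots were removed, and flower stalks too once plants had bolted. The labels name vegetative, inductive and reproductive stages without pairing them with ex1 to ex4, and they give no temperature. The label behind ex1 to ex4 is named extraction, so a collection and an extraction batch cannot be told apart.

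Values are levels on a log2(value + 1) scale, where the value is a length-normalized estimate of expression, and differences between groups are in the same log2 units. A level of 1 stands for a value of 1, and the difference of a gene with low levels is understated on this scale. The table holds no counts, so the depth behind a level is unknown. A level printed as 0 means that the gene is listed at 0. After 1 Moj ex3 morning library was left out, 79 libraries were fitted in 28 groups, 23 with 3 libraries and 5 with 2. Of the 40 genes, 35 reached a level of 1 in at least 3 libraries and were tested among 20871 genes. HSFA7B, HSFA6A, HSP21, HSP26.5 and HSP22.0 did not, and their levels are given without a test. A gene was called higher or lower where limma's Benjamini-Hochberg adjusted p over all genes tested was under 0.05.

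The master activators in the set are HSFA1A (AT4G17750), HSFA1B (AT5G16820), HSFA1D (AT1G32330) and HSFA1E (AT3G02990). The heat-induced class A factors are HSFA2 (AT2G26150), HSFA3 (AT5G03720), HSFA7A (AT3G51910) and HSFA7B (AT3G63350), and the other class A factors HSFA4A (AT4G18880), HSFA6A (AT5G43840), HSFA6B (AT3G22830) and HSFA8 (AT1G67970). Class B and C are represented by HSFB1 (AT4G36990), HSFB2A (AT5G62020), HSFB2B (AT4G11660) and HSFC1 (AT3G24520). The large chaperones are HSP101 (AT1G74310), HSP90.1 (AT5G52640), HSP90.2 (AT5G56030), HSP70-4 (AT3G12580) and HSC70-1 (AT5G02500). Small heat shock proteins of the cytosol are HSP17.6C (AT1G53540), HSP18.2 (AT5G59720), HSP17.4 (AT3G46230), HSP17.6A-CI (AT1G59860), HSP17.8 (AT1G07400), HSP17.6II (AT5G12020) and HSP17.6A (AT5G12030), and those directed to organelles HSP21 (AT4G27670), HSP23.6-MITO (AT4G25200), HSP23.5 (AT5G51440), HSP26.5 (AT1G52560), HSP22.0 (AT4G10250) and HSP15.7 (AT5G37670). The partners are MBF1C (AT3G24500), ROF1 (AT3G25230), ROF2 (AT5G48570), BAG6 (AT2G46240), HSA32 (AT4G21320) and APX2 (AT3G09640).

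In plants, proteins that unfold at high temperature draw chaperones away from heat shock factors of the HSFA1 group, which are then free to enter the nucleus and switch on the heat shock genes. HSFA1 proteins are made constitutively and act as the master activators, whereas HSFA2, HSFA3, HSFA7A and HSFA7B are themselves heat-induced and prolong or amplify the response. Class B factors lack the activation region of class A factors and mostly act as repressors. Among the targets, HSP101 pulls proteins out of aggregates, HSP90 and HSP70 proteins fold and hold client proteins, and small heat shock proteins bind unfolding proteins before they clump. Heat shock factors bind the heat shock element, an array of GAA units in alternating orientation.

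The sequence before the gene start is shown for the 5 genes of the set that carry a 3-unit heat shock element there, because HSFA2, HSFA7A, HSP17.6C and HSP17.4 are among the members the results below turn on. Sequences are the 250 bases before the annotated start in the RefSeq TAIR10.1 annotation, read 5′ to 3′ on the gene's strand, and capitals mark every match to a 2-unit or 3-unit element.
HSFA2 (chr2:11135374-11135623, plus strand): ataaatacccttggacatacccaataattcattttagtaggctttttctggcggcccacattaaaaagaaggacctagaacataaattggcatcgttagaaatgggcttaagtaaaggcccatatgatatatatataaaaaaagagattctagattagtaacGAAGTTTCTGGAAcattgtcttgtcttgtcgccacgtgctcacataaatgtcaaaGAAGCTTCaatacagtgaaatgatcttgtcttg
HSFA7A (chr3:19264891-19265140, plus strand): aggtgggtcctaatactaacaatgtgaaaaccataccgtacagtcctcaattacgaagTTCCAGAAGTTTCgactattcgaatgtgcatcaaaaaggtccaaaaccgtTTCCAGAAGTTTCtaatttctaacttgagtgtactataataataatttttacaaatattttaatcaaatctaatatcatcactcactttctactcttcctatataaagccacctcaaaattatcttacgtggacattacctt
HSFA7B (chr3:23398986-23399235, plus strand): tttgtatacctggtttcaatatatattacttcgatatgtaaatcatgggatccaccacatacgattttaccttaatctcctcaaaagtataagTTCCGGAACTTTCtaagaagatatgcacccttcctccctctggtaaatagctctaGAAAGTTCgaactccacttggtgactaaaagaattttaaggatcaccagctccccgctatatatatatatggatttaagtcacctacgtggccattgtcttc
HSP17.6C (chr1:19980049-19980298, plus strand): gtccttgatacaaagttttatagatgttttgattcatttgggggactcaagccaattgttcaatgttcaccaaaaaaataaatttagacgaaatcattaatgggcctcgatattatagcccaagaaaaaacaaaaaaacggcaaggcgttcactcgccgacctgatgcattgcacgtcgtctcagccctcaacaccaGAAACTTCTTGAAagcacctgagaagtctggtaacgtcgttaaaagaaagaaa
HSP17.4 (chr3:16984868-16985117, minus strand): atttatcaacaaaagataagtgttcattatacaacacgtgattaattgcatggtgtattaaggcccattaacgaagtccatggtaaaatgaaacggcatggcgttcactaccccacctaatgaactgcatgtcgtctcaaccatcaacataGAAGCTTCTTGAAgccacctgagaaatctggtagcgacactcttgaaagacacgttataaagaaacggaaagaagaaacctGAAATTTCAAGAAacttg

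The 2-unit form was searched as GAANNTTC and TTCNNGAA and the 3-unit element as either of these followed by NN and the unit it began with, which covers both strands, and each 3-unit match also holds 2-unit matches. In a window from 250 bases before to 50 bases after the gene start, 6 of 40 members held a 3-unit element (15.0%), against 132 of 27443 promoters of protein-coding genes (0.481%). HSFA7A and HSP17.4 each held 2 of them, and HSP70-4 held its 3-unit element 21 bases after the gene start. The 2-unit form was found in 22 of 40 members (55.0%), against 19.3% of all promoters. By role, 3-unit elements lay in 3 of 4 heat-induced class A factors, 2 of 7 cytosolic small heat shock proteins and 1 of 5 large chaperones. None of the 4 HSFA1 genes, the 4 other class A factors, the 4 class B and C factors, the 6 organelle small heat shock proteins or the 6 partners held one in this window. In the bases before the gene start alone, the 2-unit form was in 15 of 40 members (37.5%), against 16.1% of all promoters. The 3-unit element was there in 5 of 40 (12.5%), against 0.386%. The annotated start of HSP90.1 coincides with the start of its coding sequence, so its window is not a promoter in the same sense. A match is a description of the letters and not evidence that a factor binds there.

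**Figure D1:**
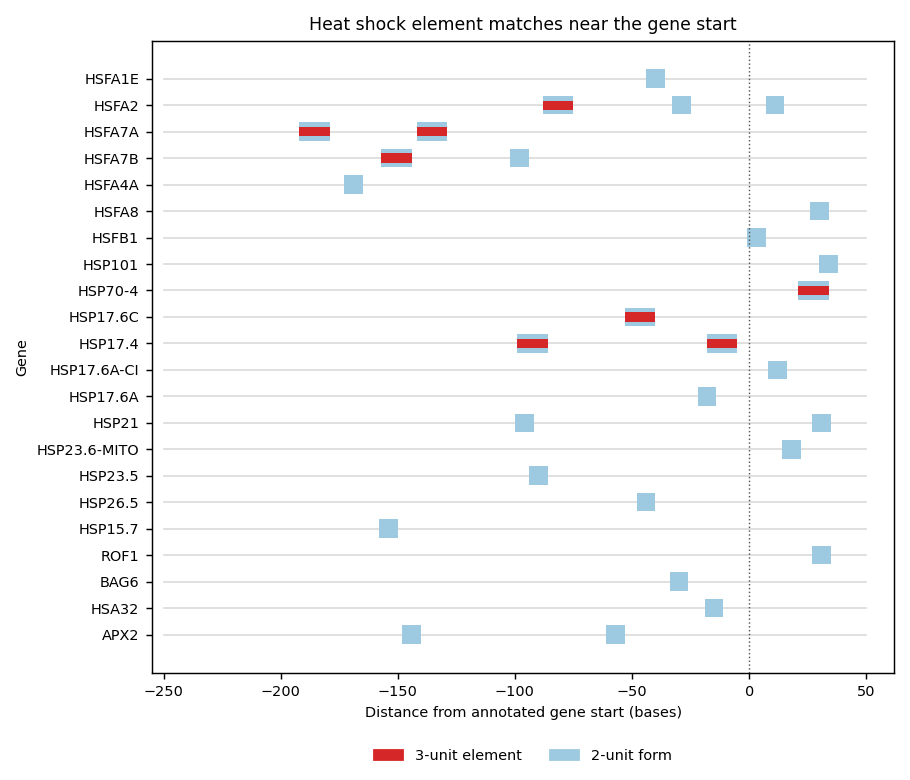
Positions of heat shock element matches in the 22 members with at least 1 match, as distance in bases from the annotated gene start (dotted line), with 3-unit elements in red and 2-unit forms in blue. The 3-unit elements of HSFA2, HSFA7A, HSFA7B, HSP17.6C and HSP17.4 lie before the gene start and that of HSP70-4 lies after it.

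The members span the whole range of levels. HSC70-1, the constitutive cytosolic HSP70, lay between 8.25 and 10.12 in every library, and HSP90.2, a constitutive cytosolic HSP90, lay between 4.73 and 7.94. Reads of HSP90.2 are hard to assign, since its coding sequence is 95.5% identical to that of HSP90.3, and HSC70-1 and HSC70-2 are 86.9% identical. The co-chaperone immunophilin ROF1 lay between 4.41 and 6.21. At the other end, HSFA7B was listed at 0 in all but 1 library, a Col-0 ex4 evening library at 0.02, although its upstream sequence carries the 3-unit element shown above. HSP21, the plastid small heat shock protein, reached a level of 1 in 2 libraries, and HSP22.0, that of the endoplasmic reticulum, also in 2. The plot of group means shows constitutive chaperones as bright rows throughout. Most small heat shock proteins are dark rows with bright cells in ex3.

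**Figure D2:**
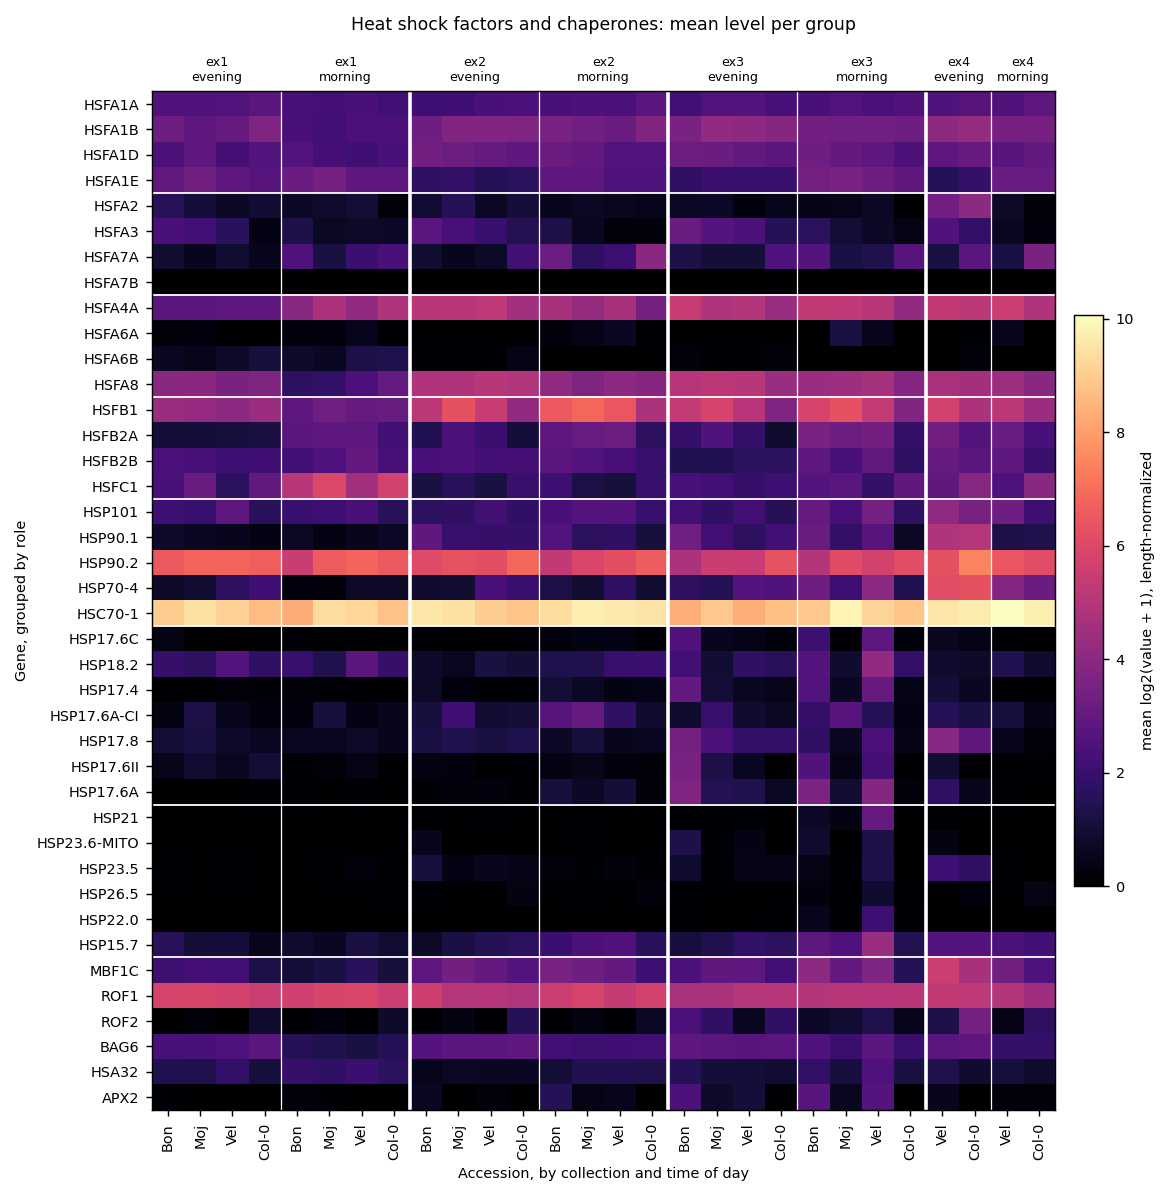
Mean log2(value + 1) of the 40 members (rows, by role) in the 28 groups (columns, by collection, time of day and accession). HSC70-1 is bright in every column, HSFA2, HSP90.1, HSP70-4 and MBF1C brighten in the ex4 evening columns, and small heat shock proteins brighten in the Bon and Vel columns of ex3.

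A single library stands apart and bears on several results. Vel ex3 morning replicate 1 held the highest level of 14 of the 40 members, and all 13 small heat shock proteins were at 1 or above in it, with a median of 4.24. HSP21 was at 6.17 there, HSP22.0 at 4.19, HSP18.2 at 6.46, HSP17.4 at 6.0 and HSP17.6A at 6.34. In the other Vel ex3 morning library, replicate 2, the same genes were at 0, 0, 1.86, 0.20 and 1.37. That group has only these 2 libraries, so the member counts of comparisons that include it are given with and without replicate 1. Both libraries held the defining markers of the labelled tissue. The summed value of 4 rosette leaf markers (RBCS1A, LHCB1.1, LHCB2.1 and CA1) was 14593 in replicate 1 and 14277 in replicate 2. Seed markers summed to 0.116 and 0, and 7 flower markers to 2.37 and 3.96. The Moj ex3 morning library left out of every comparison was closest to this library of all, with a correlation of 0.984 across genes. After Vel ex3 morning replicate 1, the most small heat shock proteins at 1 or above were in Bon ex3 morning replicate 1 (11 of 13). Over all 79 libraries the seed markers, 7 genes of storage, oil body and late embryogenesis proteins, never summed above 0.869, and the 7 flower markers reached 30.0 in 1 ex3 morning library. In bulk rosettes, fewer cells of a type and less RNA per cell cannot be told apart.

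**Figure D3:**
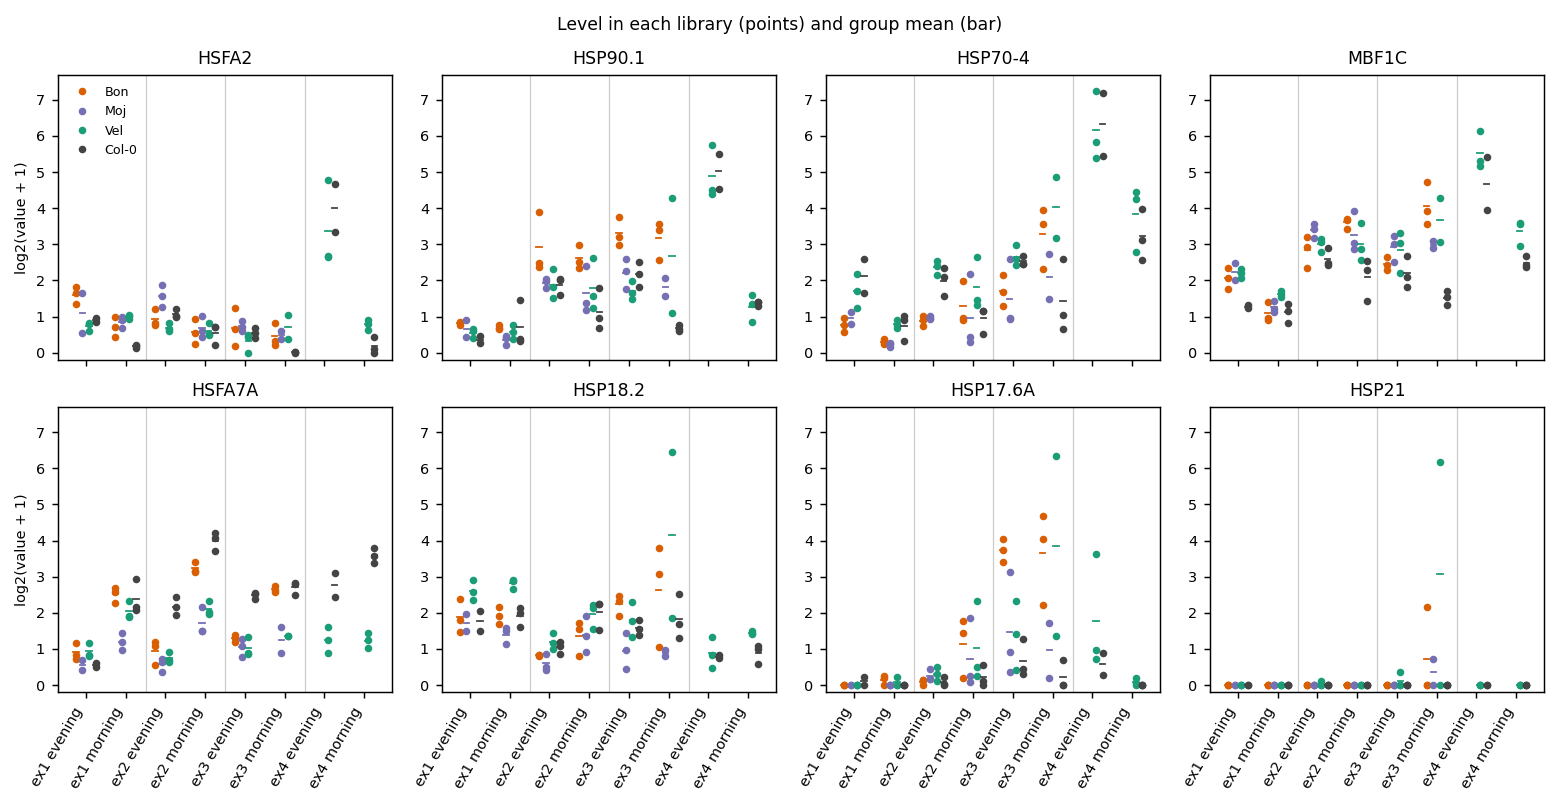
Level, log2(value + 1), of 8 members in each library (points, coloured by accession) and group means (short bars), by collection and time of day. HSFA2, HSP90.1 and HSP70-4 separate the 5 ex4 evening libraries from the rest, the highest HSFA7A points are Col-0 morning libraries of ex2 and ex4, and the top points of HSP18.2, HSP17.6A and HSP21 in ex3 are Vel morning replicate 1.

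Time of day was compared first among the constitutive activators. HSFA1B was higher in the evening in every collection, by 0.91 (SE 0.08) in ex1, 0.18 (SE 0.07) in ex2, 0.58 (SE 0.08) in ex3 and 0.70 (SE 0.11) in ex4. In ex1 its levels were 2.89 to 3.75 (median 3.23) in the evening libraries, against 2.00 to 2.71 (median 2.35) in the morning libraries, without overlap. HSFA1B overlaps a neighbouring gene on the other strand by 44 bases, and the library kit does not mark strand. HSFA1E moved the other way, at 1.38 to 1.94 (median 1.68) in the ex2 evening libraries, against 2.24 to 3.07 (median 2.73) in the ex2 morning libraries. It was lower in the evening, with differences of -0.99 (SE 0.09) in ex2, -1.39 (SE 0.09) in ex3 and -1.44 (SE 0.13) in ex4, with no overlap between the times in any of these. In ex1 it was at 2.50 to 3.39 (median 2.90) in the evening libraries, against 2.55 to 3.54 (median 3.07) in the morning libraries, which overlap, and its evening difference of -0.15 (SE 0.09) did not pass. HSFA1D was slightly higher in the evening in ex1, ex2 and ex3, by 0.18, 0.28 and 0.15. HSFA1A was higher in ex1 by 0.37 (SE 0.07) and lower in ex2, with a difference of -0.25 (SE 0.06).

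Of the heat-induced activators, HSFA3, which also responds to drought through DREB2 factors, was higher in the evening in all 4 collections. Its levels were 1.30 to 2.95 (median 2.25) in the ex2 evening libraries, against 0 to 1.48 (median 0.42) in the ex2 morning libraries. The evening differences were 0.75 (SE 0.10) in ex1, 1.54 (SE 0.10) in ex2, 1.49 (SE 0.10) in ex3 and 1.73 (SE 0.14) in ex4, and the ex1 value was the smallest. Its gene overlaps a coding gene on the other strand by 486 bases, so reads of the 2 cannot be told apart there. HSFA7A, which carries 2 of the 3-unit elements printed above, was lower in the evening in all 4 collections. It lay at 0.36 to 2.43 (median 0.83) in the ex2 evening libraries, against 1.5 to 4.22 (median 2.73) in the ex2 morning libraries. The differences were -1.29 (SE 0.11), -1.65 (SE 0.10), -0.52 (SE 0.11) and -0.40 (SE 0.15) in ex1 to ex4. HSFA2, the most strongly heat-induced factor, was higher in the evening by 0.40 (SE 0.16) in ex1 and 0.46 (SE 0.15) in ex2, and its ex3 difference of 0.15 (SE 0.16) did not pass.

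The remaining factors either kept their direction or turned round between collections. HSFA8 was higher in the evening throughout, at 3.52 to 4.20 (median 3.84) in the ex1 evening libraries, against 1.5 to 3.47 (median 2.04) in the ex1 morning libraries, a difference of 1.57 (SE 0.10). In ex2, ex3 and ex4 its differences were 1.03, 0.58 and 0.49. HSFA4A, which is linked to oxidative and salt stress, lay at 2.48 to 3.30 (median 2.88) in the ex1 evening libraries, against 3.73 to 5.82 (median 4.32) in the ex1 morning libraries, a difference of -1.60 (SE 0.12) with no overlap. In ex2 it was higher in the evening instead, by 0.73 (SE 0.12). HSFB1, a class B factor, did the reverse: 1.15 (SE 0.15) in ex1 and -0.89 (SE 0.14) in ex2. Its levels were 3.92 to 4.68 (median 4.28) in the ex1 evening libraries, against 2.61 to 3.69 (median 3.14) in the ex1 morning libraries, without overlap. The related repressor HSFB2A was lower in the evening in ex1, ex2 and ex3, by log2 differences of -1.53, -0.98 and -1.23, and HSFB2B only passed downward in ex3, at -0.94 (SE 0.11). HSFB2B lay at 0.85 to 1.99 (median 1.60) in the ex3 evening libraries, against 1.60 to 3.16 (median 2.58) in the ex3 morning libraries. On the other strand, a noncoding transcript overlaps HSFB2B by 352 bases and a coding gene by 308 bases. In ex4 the HSFB2A difference was 0.33 (SE 0.21), which did not pass, and HSFB2B was higher by 0.48 (SE 0.16). HSFC1, the single class C factor, was at 1.26 to 3.24 (median 2.55) in the ex1 evening libraries, against 4.20 to 6.46 (median 5.34) in the ex1 morning libraries, a difference of -2.81 (SE 0.20) (adjusted p = 1.6e-18). An antisense transcript overlaps HSFC1 over 1808 bases, and its reads cannot be told from those of HSFC1. BAG6, a co-chaperone regulator bound by calmodulin, was higher in the evening in each collection, by 1.12, 0.61, 0.47 and 0.98. Its ex1 levels were 2.22 to 2.84 (median 2.53) in the evening libraries, against 1.09 to 1.73 (median 1.39) in the morning libraries.

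Counted over the set, 11 of the 35 tested members were higher and 5 lower in the evening in ex1, against 22.1% and 25.7% of all genes tested. In ex2 there were 10 higher and 12 lower (33.7% and 33.1% of all genes), and in ex3 7 higher and 12 lower (29.9% and 28.7%). In ex4, 17 were higher and 2 lower, against 25% and 23.9% of all genes. Median evening differences of the tested members were 0.03, -0.12, -0.32 and 0.49 in ex1 to ex4, and those of all genes lay between -0.032 and 0.0021. Evening and morning libraries did not overlap for 4 members higher and 3 lower in the ex1 evening (3.59% and 2.42% of all genes), 2 and 2 in ex2 (4.06% and 3.85%), 0 and 1 in ex3 (3.28% and 2.95%), and 12 and 1 in ex4 (9.55% and 8.92%). Without Vel ex3 morning replicate 1, ex3 had 8 members higher and 9 lower (28.3% and 27.1% of all genes). The median evening difference of the tested members in ex3 was then -0.05 in place of -0.32. HSP18.2, HSP70-4 and MBF1C were no longer lower there, and HSP90.1 was higher, at 0.65 (SE 0.20). In ex1 and ex2 the HSP90.1 differences were 0.01 and 0.35 in that fit, and neither passed. Among the chaperones of ex2 and ex3 that were lower in the evening, HSP101 lay at 1.49 to 2.22 (median 1.81) in the ex2 evening libraries, against 1.84 to 3.18 (median 2.36) in the ex2 morning libraries, a difference of -0.57 (SE 0.12). HSP15.7, the peroxisomal small heat shock protein, was lower, with differences of -0.87 (SE 0.20) in ex2 and -1.28 (SE 0.21) in ex3, and in ex3 by -1.0 without Vel ex3 morning replicate 1. In ex3 HSP15.7 lay at 1.05 to 2.36 (median 1.43) in the evening libraries, against 1.23 to 5.45 (median 2.51) in the morning libraries, which overlap. HSA32, which extends acquired thermotolerance, was at 0.33 to 0.88 (median 0.64) in the ex2 evening libraries, against 0.90 to 1.86 (median 1.34) in the ex2 morning libraries, without overlap. Its difference was -0.70 (SE 0.12). A coding gene on the same strand overlaps HSA32 by 113 bases. HSP17.6A-CI, a cytosolic class I small heat shock protein, lay at 0.48 to 2.30 (median 1.08) in the ex2 evening libraries, against 0.32 to 3.37 (median 1.93) in the ex2 morning libraries, a difference of -0.79 (SE 0.12).

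**Figure D4:**
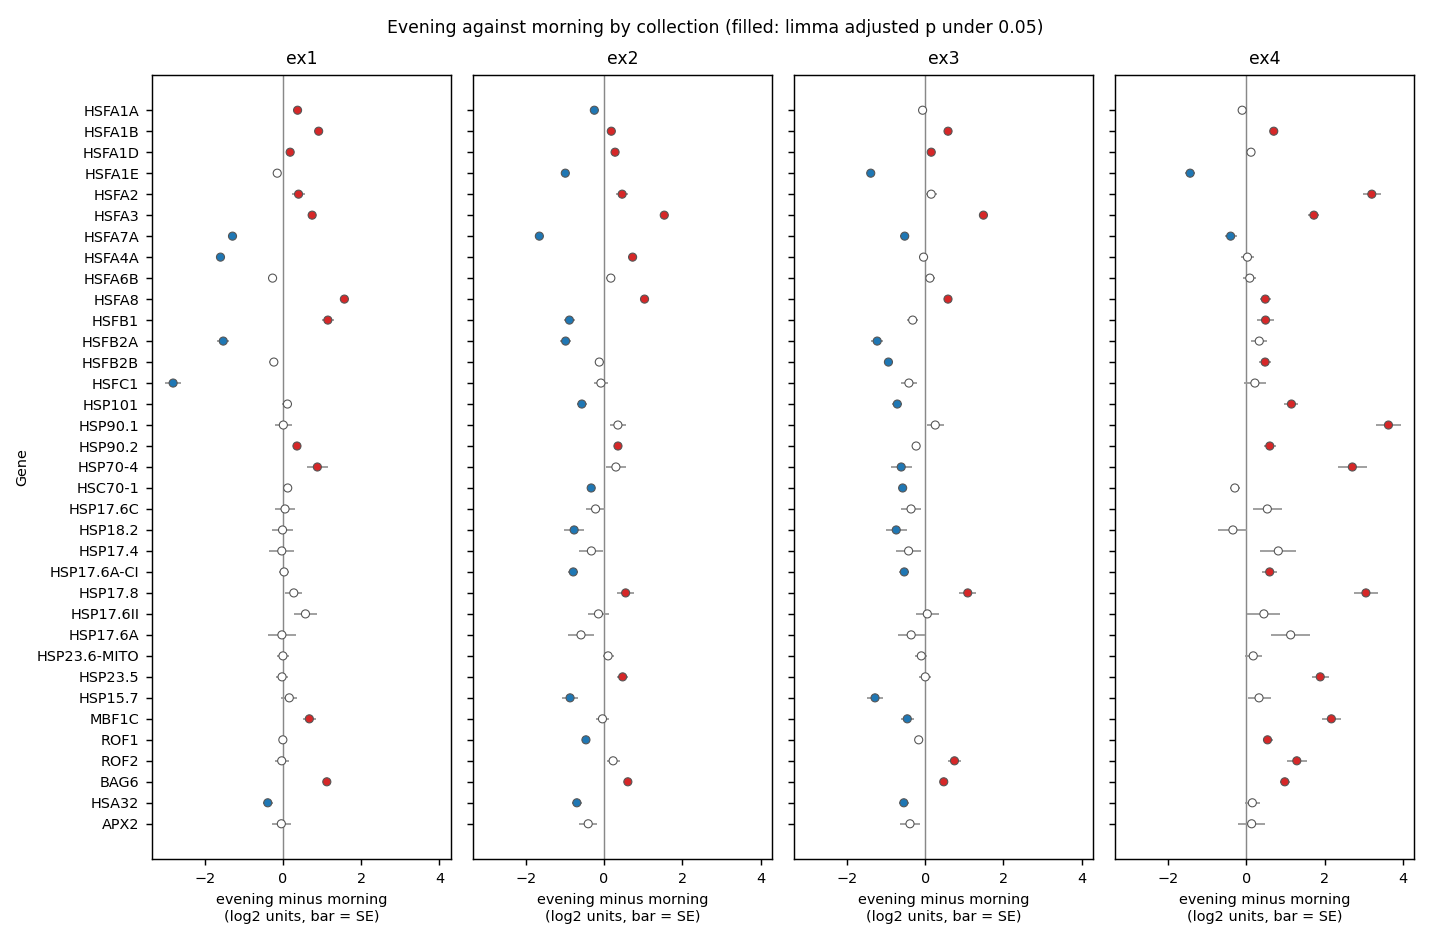
Evening minus morning difference in log2 units (points, with SE bars) for the 35 tested members in each collection, averaged over the accessions present. Filled points passed an adjusted p of 0.05 (red higher, blue lower). The ex4 panel holds 17 red and 2 blue points, with HSP90.1, HSFA2 and HSP17.8 farthest to the right.

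The ex4 evening libraries stood out in the set. There are 3 from Vel and 2 from Col-0, and HSFA2, HSP90.1 and HSP70-4 were higher in each of these 5 than in any of the other 74 libraries, as were 79 of 20871 genes (0.379%). HSFA2 was at 4.79, 2.67 and 2.64 in Vel evening and 3.35 and 4.67 in Col-0 evening libraries, against 0.81, 0.64 and 0.91 in Vel morning and 0, 0.43 and 0.10 in Col-0 morning libraries. Every evening library lay far above every morning library, and the difference was 3.21 (SE 0.22), adjusted p = 4.3e-18. HSP90.1, the heat-induced cytosolic HSP90, was at 5.76, 4.38 and 4.50 in Vel evening and 4.54 and 5.5 in Col-0 evening libraries, against 0.84, 1.60 and 1.36 in Vel morning and 1.29, 1.41 and 1.40 in Col-0 morning libraries. Its difference, 3.63 (SE 0.32), was the largest among the 35 tested members in ex4. HSP70-4, a heat-induced cytosolic HSP70, was at 7.25, 5.83 and 5.39 in Vel evening and 5.46 and 7.18 in Col-0 evening libraries, against 2.79, 4.45 and 4.26 in Vel morning and 3.11, 3.98 and 2.56 in Col-0 morning libraries. The morning levels were all above 1.56, the median over the 79 libraries, and the evening difference was 2.71 (SE 0.37).

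The transcriptional co-activator MBF1C, needed for basal thermotolerance, followed the same order. It and HSP101 overlap genes on the other strand by up to 176 and 101 bases. It was at 6.14, 5.31 and 5.16 in Vel evening and 3.94 and 5.41 in Col-0 evening libraries, against 2.97, 3.59 and 3.57 in Vel morning and 2.38, 2.68 and 2.42 in Col-0 morning libraries. The groups did not overlap, and the difference was 2.17 (SE 0.24). HSP17.8 was at 5.06, 3.31 and 3.33 in Vel evening and 2.22 and 3.65 in Col-0 evening libraries, against 0.42, 0.82 and 0.39 in Vel morning and 0.19, 0.16 and 0.18 in Col-0 morning libraries. This class I small heat shock protein differed by 3.06 (SE 0.31). Its coding sequence is 88.0% identical to that of HSP17.6A-CI, which differed by 0.60 (SE 0.19). The mitochondrial small heat shock protein HSP23.5 was at 2.94, 1.64 and 1.75 in Vel evening and 1.32 and 2.25 in Col-0 evening libraries, against 0, 0.35 and 0 in Vel morning and 0, 0 and 0 in Col-0 morning libraries. It differed by 1.89 (SE 0.22), with no overlap. HSP101 was at 4.53, 3.90 and 3.91 in Vel evening and 3.05 and 3.96 in Col-0 evening libraries, against 2.84, 3.44 and 3.5 in Vel morning and 2.03, 2.17 and 1.96 in Col-0 morning libraries. The times overlap across accessions but not within either, and the difference was 1.15 (SE 0.18). ROF2, the heat-induced immunophilin related to ROF1, was at 1.46, 1.15 and 1.28 in Vel evening and 3.30 and 3.57 in Col-0 evening libraries, against 0.24, 0.42 and 0.64 in Vel morning and 1.0, 2.16 and 2.01 in Col-0 morning libraries. Both accessions were higher in the evening and Col-0 was higher than Vel at each time, with an evening difference of 1.29 (SE 0.25).

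Other heat-induced members did not pass in the ex4 evening. HSP18.2, a class I small heat shock protein, was at 1.32, 0.47 and 0.84 in Vel evening and 0.82 and 0.75 in Col-0 evening libraries, against 1.43, 1.5 and 1.43 in Vel morning and 0.59, 1.09 and 1.01 in Col-0 morning libraries, a difference of -0.34 (SE 0.37) that did not pass. HSP17.6C was at 1.74, 0 and 0.08 in Vel evening and 0.44 and 0.49 in Col-0 evening libraries, against 0 in all 6 morning libraries, and its difference of 0.54 (SE 0.37) did not pass. HSP17.4 was at 2.46, 0.19 and 0.45 in Vel evening and 0.59 and 0.72 in Col-0 evening libraries, against 0, 0 and 0 in Vel morning and 0.15, 0 and 0 in Col-0 morning libraries. Each evening library was above each morning library, most by little and Vel replicate 1 by much, and the difference of 0.82 (SE 0.46) did not pass. HSP17.6A was alike, at 3.63, 0.73 and 0.96 in Vel evening and 0.27 and 0.89 in Col-0 evening libraries, against 0, 0.20 and 0.07 in Vel morning and 0, 0 and 0 in Col-0 morning libraries, a difference of 1.13 (SE 0.49). When Vel ex3 morning replicate 1 was left out of the fit, which shares 1 estimate of the spread over all groups, these 2 differences passed, at 0.82 (SE 0.31) and 1.13 (SE 0.40), and 19 members were higher. HSP21 and APX2, a heat- and light-induced ascorbate peroxidase, stayed low: HSP21 was listed at 0 in all 11 ex4 libraries, and APX2 was at 0.82, 0.58 and 0.35 in Vel evening and 0.06 and 0 in Col-0 evening libraries. HSFA1E, lower in the evening like HSFA7A, was at 1.53, 1.59 and 1.42 in Vel evening and 2.12 and 1.61 in Col-0 evening libraries, against 3.11, 3.07 and 3.21 in Vel morning and 3.13, 3.03 and 3.21 in Col-0 morning libraries. The rosette leaf marker sum was 1969 to 10771 in the ex4 evening libraries, against 7889 to 12241 in the ex4 morning libraries, and 3 of its 4 genes were lower in the evening. The part of that shift in the heat genes was not tested.

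Within accessions, the 14 pairs of evening and morning groups were each tested. HSFA3 was higher in the evening in 13 of 14, BAG6 in 11, HSFA8 in 12 and HSFA1B in 11, and none of these 4 was lower in any. Over the 14 pairs, 10.7% to 24.3% of all genes were higher, and from 9.79% up to about as many were lower. HSFA1E was lower in 10, HSFB2A in 9 and HSFA7A in 10 of 14, and none of these 3 was higher in any. Without Vel ex3 morning replicate 1 these counts were 14 for BAG6 and 10 for HSFB2A and the same for the other 5 genes. In ex4, Vel had 12 members higher and 2 lower in the evening, against 19.4% and 19.7% of all genes, and Col-0 had 16 and 2, against 17.3% and 15.5%. HSFA2 differed by 2.58 (SE 0.30) in Vel and 3.83 (SE 0.33) in Col-0, and HSP90.1 by 3.62 (SE 0.42) in Vel and 3.65 (SE 0.47) in Col-0.

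Whether the evening difference depends on the collection was tested directly. Over ex1 to ex3 an F test called 23 of the 35 tested members, against 71.6% of all genes, and 24 without Vel ex3 morning replicate 1, against 70.6%. The members' share, 65.7%, is not above that of all genes. In ex2 against ex1 the largest contrasts among the members were those of HSFC1, whose evening difference was 2.73 (SE 0.27) higher in ex2 than in ex1, of HSFA4A, 2.33 (SE 0.17) higher, and of HSFB1, which was -2.03 (SE 0.20). These contrasts are signed, so higher can mean a smaller evening fall: the HSFC1 difference was -2.81 in ex1 and -0.08 in ex2. Against ex1, the signed evening difference was higher in 6 members and lower in 13 in ex2 (30.8% and 28.2% of all genes). In ex3 it was higher in 7 and lower in 14 (28.7% and 25.8%). Without Vel ex3 morning replicate 1 the ex3 counts were also 7 and 14 (27.8% and 25% of all genes), and without replicate 2 of that group 4 were higher. In Vel and Col-0, the ex4 evening difference minus that of ex3 was higher in 19 members and lower in 0, against 5.02% and 4.92% of all genes. It was 3.38 (SE 0.45) for HSP90.1, 3.14 (SE 0.32) for HSFA2 and 2.84 (SE 0.53) for HSP70-4. Without Vel ex3 morning replicate 1 the counts were 9 and 1, against 3.60% and 3.18% of all genes, and these 3 genes were at 2.58, 2.97 and 2.43. HSP101, MBF1C, HSP17.8, HSP23.5, HSFB2A and HSFB2B also passed without it. HSP90.2, HSP17.6C, HSP17.4, HSP17.6A-CI, HSP17.6A, HSP15.7, ROF1, ROF2, BAG6 and HSA32 no longer passed, and HSFA1E was lower, at -0.55. Without Vel ex4 evening replicate 1, 12 members were higher. At an unadjusted p under 0.05 in limma, 0 members were lower with all libraries in the fit. In evening libraries alone, whose means do not include Vel ex3 morning replicate 1, ex4 was above ex3 in 17 members and below it in 0, against 25.2% and 23.9% of all genes, and below it in 2 at an unadjusted p under 0.05. With that library out of the fit, which changes the shared estimate of the spread, 17 were above and 2 below (25.1% and 23.9% of all genes), HSP18.2 at -0.86 and HSFA1E at -0.27. The evening rise was 3.64 (SE 0.37) for HSP70-4, 3.26 (SE 0.22) for HSFA2 and 3.01 (SE 0.32) for HSP90.1. Between accessions, an F test of the evening difference over ex1 to ex3 called 15 of the 35 tested members, against 28.1% of all genes. The count was 13 without Vel ex3 morning replicate 1, against 27.2% of all genes, 27 without replicate 2 of that group, and 6 without the libraries numbered 1 or those numbered 3.

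Between the first 2 collections, 16 of the 35 tested members were higher and 7 lower in ex2 than in ex1, against 39.5% and 43.7% of all genes. HSFB1 changed most among the rises: it lay at 4.21 to 7.74 (median 6.38) in the ex2 morning libraries, against 2.61 to 3.69 (median 3.14) in the ex1 morning libraries, and at 4.14 to 6.32 (median 5.25) in the ex2 evening libraries, against 3.92 to 4.68 (median 4.28) in the ex1 evening libraries. Over both times the difference was 2.03 (SE 0.10). The morning libraries did not overlap and the evening libraries did. HSFA8 differed by 1.40 (SE 0.07), HSP90.1 by 1.38 (SE 0.15), MBF1C by 1.37 (SE 0.12) and HSP17.6A-CI by 1.09 (SE 0.09). For HSP90.1 the levels were 1.52 to 3.88 (median 2.02) in the ex2 evening libraries, against 0.26 to 0.89 (median 0.62) in the ex1 evening libraries, without overlap. HSFC1 fell most, to 1.02 to 3.45 (median 1.36) in the ex2 morning libraries, against 4.20 to 6.46 (median 5.34) in the ex1 morning libraries, a morning difference of -3.73 (SE 0.19), adjusted p = 1.3e-25. In morning libraries alone 16 members were higher and 6 lower (38.6% and 41.8% of all genes), and in evening libraries 13 and 9 (35.9% and 38.8%). HSFA6B, an abscisic acid responsive factor, changed by -0.80 (SE 0.08) and HSFA1E by -0.85 (SE 0.06). The summed value of 4 root markers was 1.44 to 30.3 in ex2 libraries and 7.89 to 40.5 in ex1 libraries. Of the 4, only PYK10 reached a level of 1 in at least 3 libraries. The part of these markers in the changes between ex1 and ex2 was not tested.

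In ex3 against ex2, 17 members were higher and 8 lower, against 27.8% and 27.0% of all genes, and without Vel ex3 morning replicate 1 there were 16 and 8 (26.7% and 26.0%). The rises were led by cytosolic small heat shock proteins, HSP17.6A at 1.52 (SE 0.24), HSP17.6II at 1.08 (SE 0.20) and HSP17.4 at 1.02 (SE 0.22), and by HSP70-4 at 1.0 (SE 0.18). Without Vel ex3 morning replicate 1 these were 1.21, 0.83, 0.66 and 0.90. They are means over the 4 accessions, and in Bon alone the same 4 changes were 3.08, 2.69, 1.94 and 1.40. HSP17.6A lay at 0.30 to 4.04 (median 1.35) in the ex3 evening libraries, against 0 to 0.49 (median 0.15) in the ex2 evening libraries. The groups overlap, and the 3 Bon libraries were above every other of the ex3 evening. The constitutive chaperones moved down, HSP90.2 by -0.56 (SE 0.08) and HSC70-1 by -0.47 (SE 0.07). In ex4 against ex3, in Vel and Col-0, 18 members were higher and 6 lower, against 30.0% and 26.7% of all genes. Without Vel ex3 morning replicate 1 there were 18 higher and 1 lower (28.3% and 25.9% of all genes), the lower one being HSP18.2, at -0.76 in place of -1.34 (SE 0.26). The count of lower members was 10 without Vel ex3 morning replicate 2, and 3 without either Col-0 ex4 evening replicate 1 or Vel ex4 evening replicate 2. HSP70-4 rose by 2.22 (SE 0.26), HSFA2 by 1.69 (SE 0.16), MBF1C by 1.46 (SE 0.17) and HSC70-1 by 0.98 (SE 0.09). In the morning HSC70-1 was at 10.12, 10.04 and 10.02 in Vel ex4 and 9.95, 9.59 and 9.76 in Col-0 ex4 libraries, against 9.21 and 9.15 in Vel ex3 and 8.58, 8.78 and 9.11 in Col-0 ex3 libraries. The rosette leaf markers were lower in ex4 for all 4 genes, with a median difference of -2.19, and their part was not tested.

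Each of the other accessions was set against Col-0 across collections ex1, ex2 and ex3, with shared Col-0 libraries. Bon was higher in 20 and lower in 6 of the 35 tested members, against 32.9% and 33.6% of all genes. Moj was higher in 12 and lower in 7, against 33.0% and 35.7%. Vel was higher in 19 and lower in 5, against 32.2% and 32.3%, and without Vel ex3 morning replicate 1 in 14 and 4 (31.1% and 31.1%). Median differences of the tested members were 0.29 in Bon, 0.24 in Moj and 0.36 in Vel, and those of all genes 0, -0.0085 and 0. Without Vel ex3 morning replicate 1 the members' median was 0.18 in Vel, below those of Bon and Moj, which did not change. HSFB1, HSFB2A, HSFB2B, MBF1C, HSFA3, HSFA4A, HSP101 and HSP17.6A-CI were higher than Col-0 in all 3 accessions, and HSFA7A, HSFA1B, HSP90.2 and ROF2 were lower in all 3. The HSFA1B difference in Vel, -0.14, no longer passed without Vel ex3 morning replicate 1, at -0.13. HSFB1 differed by 1.02 (SE 0.11) in Bon, 1.47 (SE 0.12) in Moj and 0.90 (SE 0.12) in Vel. In ex3 it lay at 4.94 to 5.92 (median 5.73) in the Bon libraries, against 3.46 to 4.07 (median 3.67) in the Col-0 libraries, without overlap. HSFA3 differed by 1.30 (SE 0.08), 0.78 (SE 0.08) and 0.50 (SE 0.08), in the order Bon, Moj, Vel. In the ex3 evening group it was at 3.35, 3.0 and 3.08 in Bon, 2.82, 2.60 and 2.52 in Moj, 2.27, 2.27 and 2.87 in Vel and 1.80, 1.33 and 1.40 in Col-0 libraries, with Bon highest and Col-0 lowest. HSFB2A was at 2.13 to 3.28 (median 2.87) in the ex3 libraries of Moj, against 0.85 to 2.12 (median 1.24) in those of Col-0, apart by little at the edge. HSP17.6A-CI had its largest difference from Col-0 in Moj, 1.40 (SE 0.11), adjusted p = 2.3e-17.

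Of the 4 genes lower in all 3, HSFA7A had the largest difference in Moj and Vel, and HSP90.2 in Bon. In the ex2 morning group HSFA7A was at 3.13, 3.41 and 3.15 in Bon, 1.5, 2.16 and 1.51 in Moj, 2.03, 1.96 and 2.33 in Vel and 3.71, 4.07 and 4.22 in Col-0 libraries, and every Col-0 library was above every other. The difference was -0.46 (SE 0.09) in Bon, -1.33 (SE 0.09) in Moj and -1.01 (SE 0.09) in Vel. HSP90.2 was also lower in all 3 accessions, by a log2 difference of -0.99 in Bon, -0.32 in Moj and -0.31 in Vel, within the limits of its near-identical copy. ROF2 was lower in all 3 as well, at -0.48, -0.40 and -0.67. The genome build in the submitters' notes, TAIR10, is that of Col-0, and the part of sequence differences in these comparisons was not tested.

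Differences from Col-0 were tested over ex1 to ex3 together and in ex3 alone, and the 2 largest of the members in these tests were those of HSP17.6A and HSP17.6II in Bon in ex3. HSP17.6A, a class II small heat shock protein, was at 4.04, 3.40 and 3.74 in Bon evening and 4.69, 4.04 and 2.23 in Bon morning libraries, against 1.28, 0.30 and 0.44 in Col-0 evening and 0, 0.70 and 0 in Col-0 morning libraries. All 6 Bon libraries were above all 6 Col-0 libraries, and the difference was 3.24 (SE 0.46), adjusted p = 2.3e-08. HSP17.6II, also of class II, was at 4.04, 3.17 and 3.30 in Bon evening and 3.25, 3.15 and 1.34 in Bon morning libraries, against 0.11, 0 and 0 in Col-0 evening and 0, 0.01 and 0 in Col-0 morning libraries, a difference of 3.02 (SE 0.40). These 2 coding sequences are 86.9% identical. HSP17.4 was at 3.52, 2.69 and 2.79 in Bon evening and 2.75, 3.06 and 2.08 in Bon morning libraries, against 0.60, 0.29 and 0.58 in Col-0 evening and 0.33, 0.90 and 0.01 in Col-0 morning libraries, a difference of 2.36 (SE 0.43) without overlap. HSP17.6C was at 2.83, 2.1 and 2.75 in Bon evening and 3.15, 2.45 and 0.63 in Bon morning libraries, against 0.25, 0.31 and 0 in Col-0 evening and 0.17, 0.35 and 0 in Col-0 morning libraries, a difference of 2.14 (SE 0.35). HSP17.4, which a noncoding transcript on the other strand overlaps by 453 bases, and HSP17.6C both carry the 3-unit element printed above and are 85.0% identical in coding sequence. APX2 was at 2.02, 2.54 and 2.77 in Bon evening and 3.45, 3.36 and 1.35 in Bon morning libraries, against 0, 0.21 and 0 in Col-0 evening and 0, 0 and 0 in Col-0 morning libraries, a difference of 2.55 (SE 0.33). HSP90.1 was at 3.75, 3.2 and 2.98 in Bon evening and 3.57, 3.39 and 2.56 in Bon morning libraries, against 2.19, 1.80 and 2.51 in Col-0 evening and 0.65, 0.76 and 0.61 in Col-0 morning libraries, a difference of 1.82 (SE 0.30).

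In ex3 alone, Bon was higher than Col-0 in 20 and lower in 2 of the tested members, against 29.0% and 34.4% of all genes. Moj was higher in 11 and lower in 2 (29.0% and 34.2%), or 1 without morning replicate 3. Vel was higher in 24 and lower in 2 (23.6% and 27.0%), but without its morning replicate 1 it was higher in 12 and lower in 3, against 20.7% and 23.3% of all genes. The small heat shock proteins lost most: in Vel HSP17.4 had a difference of 1.40 (SE 0.46) with that library and -0.05 (SE 0.36) without it, HSP18.2 one of 1.27 (SE 0.37) and 0.12 (SE 0.30), and HSP17.6A one of 2.17 (SE 0.49) and 0.93 (SE 0.46). HSFB1, HSFB2A, HSP101, MBF1C, HSP15.7 and APX2 passed in Vel with and without it. In Bon, ex3 was above ex2 in 18 and below it in 5 members, against 24.7% and 24.7% of all genes, with HSP17.6A up by 3.08 (SE 0.46) and HSP17.6II by 2.69 (SE 0.40). This signed change was higher in Bon than in Col-0 in 11 members and lower in 1, against 11.6% and 14.8% of all genes. The difference between the changes was 2.83 (SE 0.56) for HSP17.6II, 2.78 (SE 0.66) for HSP17.6A, 2.07 (SE 0.49) for HSP17.6C and 1.49 (SE 0.42) for HSP17.8. Over all accessions, an F test of whether the changes between collections differ called 24 of 35 tested members, against 72.9% of all genes. The count was 25 without Vel ex3 morning replicate 1, against 71.8% of all genes, and 8 without the libraries numbered 3. Bon ex3 libraries also differed in markers: 4 flower markers and 3 rosette leaf markers were lower in Bon than in Col-0 in ex3. Bon ex3 morning replicate 3, the lowest of its group for HSP17.6A, HSP17.6C and APX2, had a flower marker sum of 16.7, against 2.78 and 2.72 in replicates 1 and 2, and the part of these markers was not tested.

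**Figure D5:**
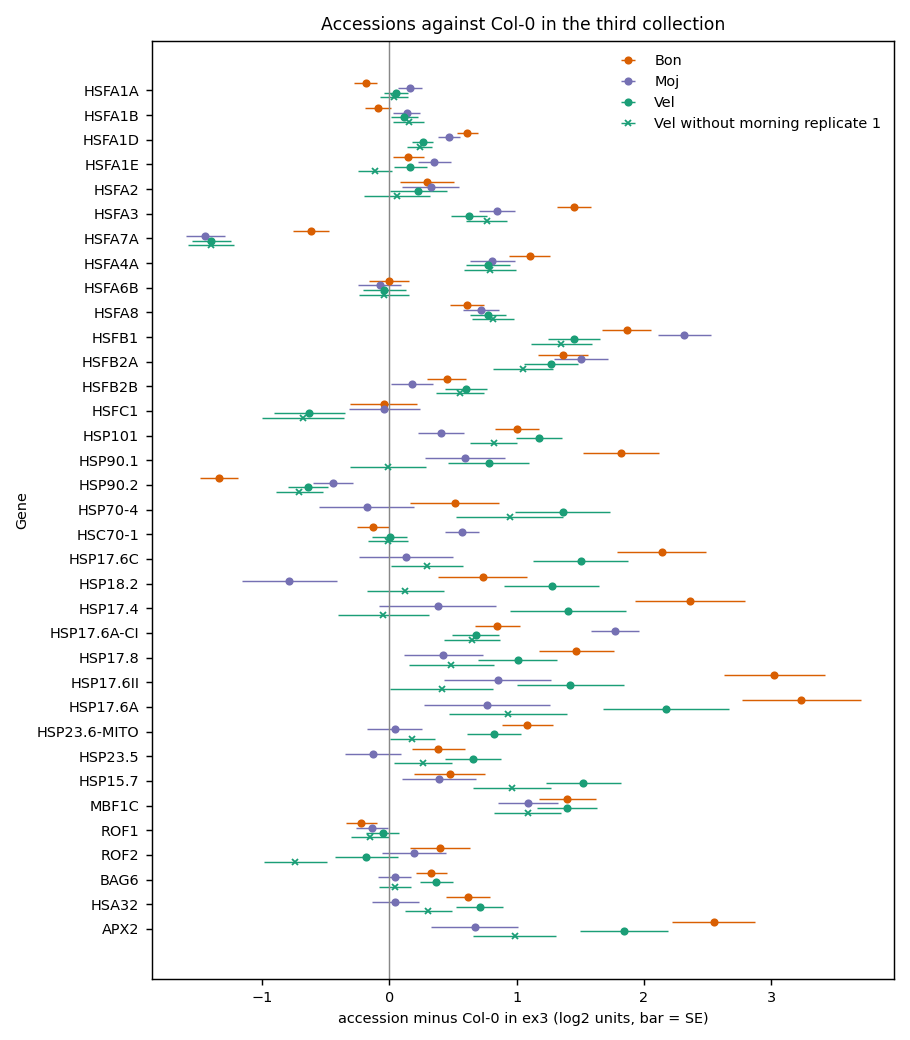
Difference from Col-0 in ex3 in log2 units (points, with SE bars) for the 35 tested members in Bon (orange), Moj (purple), Vel (green points) and Vel without morning replicate 1 (green crosses). Bon lies farthest to the right for HSP17.6A and HSP17.6II, and the Vel small heat shock proteins move toward 0 without that library.

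Related genes outside the set, 58 in 6 lists, were counted in the same fits. Genes of protein folding in the endoplasmic reticulum rose in the evening in 9, 8 and 9 of 11 in ex2, ex3 and ex4, and in 2 in ex1, against 33.7%, 29.9%, 25% and 22.1% of all genes. In the ex4 evening, the calcium-binding chaperone CRT1 was higher by 1.92 (SE 0.15) and the lectin chaperone CNX1 by 1.51 (SE 0.17). The same list was higher in ex2 than in ex1 in 10 of 11 genes (against 39.5% of all genes), with CRT3 at 2.77 (SE 0.10), and lower in ex3 than in ex2 in 11 of 11 (against 27.0%), with BIP2, an HSP70 of this compartment, at -1.49 (SE 0.10). Plastid and mitochondrial chaperones were lower in ex2 than in ex1 in 11 of 13 (against 43.7% of all genes), with the chaperonin CPN60A at -1.64 (SE 0.09), and lower again in ex3 in 10 of 13 (against 27.0%). In the ex4 evening, where 25% of all genes were higher and 23.9% lower, 8 of these 13 were higher and 1 lower, with the plastid HSP90.5 at 1.86 (SE 0.18). Of 5 further small heat shock proteins, 3 were higher and 1 lower in the ex4 evening. HSP18.5 was at 7.71, 7.68 and 7.52 in Vel evening and 7.12 and 7.85 in Col-0 evening libraries, against 5.03, 5.29 and 5.39 in Vel morning and 5.57, 5.14 and 5.32 in Col-0 morning libraries, and it too was higher in these 5 evening libraries than in any other. ACD32.1 was higher by 2.45 (SE 0.14) and HSP15.4 lower, at -1.61 (SE 0.19). Among 16 tested cytosolic HSP70, HSP90 and co-chaperone genes, 7 were higher and 2 lower in the ex4 evening, with the HSP70 nucleotide exchange factor FES1A at 1.29 (SE 0.14). In the same comparison 3 of 7 heat regulators and targets were higher and 1 lower: DREB2A, an activator of HSFA3, was higher by 1.49 (SE 0.20), and GOLS1, a galactinol synthase, was lower at -2.34 (SE 0.24). Of 4 tested further heat shock factors 1 was higher and 1 lower, HSFB3 and HSFA5. Counts in lists of 7, 5 and 4 genes are too small to be read against the shares over all genes.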

How the data were processed

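RNA-seq levels were taken from 1 deposited table of 33602 genes and 80 libraries. The values the authors deposited are on a log2 scale; from the values themselves they are log2(value + 1) of a length-normalized estimate with the same distribution in every library. FastQC, HISAT2, StringTie and the TAIR10 build are named in the submitters' processing notes, without versions. Without counts in the table, sequencing depth is not known and count tests were not used. Between 20428 and 22858 genes were above 0 in a library. The strand is not marked by the library kit.

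Differences were estimated with limma 3.58.1 in R 4.3.3, with 1 mean per group, 51 residual degrees of freedom and a variance trend. Tests were two-sided, over the 20871 genes that reached a log2 value of 1 in 3 or more libraries, with Benjamini-Hochberg adjustment and a threshold of 0.05. The fit was tested on simulated data. The Moj ex3 morning replicate 1 library was left out. Marker sums are of values with the log undone. No 2 libraries were identical, and their highest correlation was 0.99215.

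The 25 members with the largest called difference of at least 1 were named with their values or ranges, and 8 members were named whatever their result. HSP90.2, BAG6, HSP17.6II, HSFA6B, ROF1 and the untested members were named after their values were seen. Of the pathway lists, up to 3 genes a comparison were named by smallest adjusted p. The members and lists were chosen with earlier results of these data known. The comparisons within ex3, within Bon, among evening libraries of ex4 and ex3, and of the ex4 with the ex3 evening difference were chosen after seeing the data, as was the fit without Vel ex3 morning replicate 1. Promoter windows came from RefSeq TAIR10.1, and coding sequences were compared with blastn 2.17.0+. Alternatives covered filters, pseudocounts of 0.1 and 5, scaling, variance model, library weights, a replicate block, libraries in the fit and libraries left out.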

Additional observations from a re-analysis of the deposited data

Results flagged for a closer look

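Several differences between groups were themselves tested with limma and passed, and are listed here as values. The evening difference depended on the collection in 23 of the 35 tested members and on the accession in 15, against 71.6% and 28.1% of all genes, and the change between collections depended on the accession in 24, against 72.9%. The first and the last are 65.7% and 68.6% of the members, not above the share over all genes. The evening difference of ex2 minus that of ex1 passed in 19 members, 6 higher and 13 lower, against 30.8% and 28.2% of all genes, among them HSFC1 at 2.73, HSFA4A at 2.33 and HSFB1 at -2.03. That of ex3 minus ex1 passed in 21 members, 7 higher and 14 lower, against 28.7% and 25.8% of all genes, with HSFC1 at 2.39.

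In Vel and Col-0 the evening difference of ex4 minus that of ex3 passed in 19 members, all higher, against 5.02% of all genes. It was 3.38 for HSP90.1, 3.14 for HSFA2, 2.84 for HSP70-4, 2.65 for HSP17.8, 2.24 for MBF1C, 2.14 for HSP17.6A, 2.11 for HSP23.5 and 2.02 for HSP17.4. Vel ex3 morning replicate 1 is part of this contrast, and without it 10 of the 19 no longer passed (HSP17.6A, HSP17.4, HSP17.6C, HSP17.6A-CI, HSP15.7, HSP90.2, ROF1, ROF2, BAG6 and HSA32). The other 9 stayed higher, against 3.60% of all genes, and HSFA1E was lower.

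The change of ex3 against ex2 differed between Bon and Col-0 in 12 members, 11 higher and 1 lower, against 11.6% and 14.8% of all genes, with 2.83 for HSP17.6II, 2.78 for HSP17.6A and 2.07 for HSP17.6C.

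The Moj ex3 morning replicate 1 library entered none of the reported comparisons, and HSP70-4 was at 4.77, HSP15.7 at 4.64 and HSP18.2 at 3.37 in it. These levels are above those of the Col-0 ex3 morning libraries. Among the fitted libraries, HSP15.7 was higher only in Vel ex3 morning replicate 1 (5.45). HSP18.2 was higher only in that library (6.46) and in Bon ex3 morning replicate 1 (3.80). The other Moj ex3 morning libraries were therefore lower for these genes. HSP21, HSP22.0, HSP26.5 and HSP17.6C were listed at 0 in the left-out Moj library. In Vel ex3 morning replicate 1 the same genes were at 6.17, 4.19, 1.76 and 5.30.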

How the results depend on the processing

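Of 28049 values of single genes in other settings, 27742 kept their direction and side of the threshold, 234 no longer passed, 68 newly passed and 5 turned round. All 5 are Vel against Col-0 in ex3 without replicate 1. HSP17.4, at 1.40 with all libraries, was -0.047 without Vel ex3 morning replicate 1 and lay between -0.35 and 3.08 over the libraries and replicate numbers left out. HSP90.1, at 0.78, was -0.011 without that library and lay between -0.078 and 1.57. HSP18.2, at 1.27, lay between -0.014 and 2.67. Of 508 counts in settings that leave out no library, 494 were within 1.5 times the reported one. With only the libraries of the comparison, Vel against Col-0 in ex3 had 15 members higher, ex4 against ex3 2 lower (1 among evening libraries), the evening of ex4 1 lower, and the ex4 minus ex3 evening difference 12 higher. With library weights, Bon against Col-0 in ex3 had 4 lower, the Bon minus Col-0 change 17 higher and 2 lower, and ex4 against ex3 among evening libraries 1 lower. Without a filter the Bon minus Col-0 change had 0 lower, and with the stricter filter ex4 against ex3 among evening libraries had 1 lower. A pseudocount of 0.1 gave 1 lower in the ex4 evening and 2 lower in ex4 against ex3 among evening libraries, and a pseudocount of 5 gave 4 lower in Moj against Col-0.

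Leaving out libraries moved these counts over these ranges. In ex3, Vel against Col-0 had 8 to 25 higher and 1 to 3 lower, and Moj 1 to 3 lower. Over ex1 to ex3, Vel had 7 to 23 higher and 3 to 6 lower, and Moj 2 to 7 lower. The Bon minus Col-0 change had 6 to 13 higher and 0 to 2 lower, and ex3 against ex2 in Bon 11 to 19 higher and 3 to 5 lower. The collection change by accession was called in 8 to 30 members and the evening difference by accession in 6 to 27. The evening difference was higher in 3 to 6 members for ex2 minus ex1, 4 to 7 for ex3 minus ex1 and 9 to 22 for ex4 minus ex3, with 0 to 1 lower in the last. The evening of ex4 had 1 to 3 lower, ex3 against ex2 5 to 8 lower, and ex4 against ex3 1 to 10 lower, or 0 to 2 among evening libraries. With the replicate number as a block, 46 of 46 counts were within 1.5 times the reported one and 301 of 302 gene values kept their call. Deviations of same-numbered libraries of different groups had a median correlation of 0.000999 over 1002 pairs, and 20.4% of these pairs were over 0.1. Among those within 1 collection 25.9% were over 0.1, against 18.8% of differently numbered pairs over all collections. Of 79 libraries, 35 were closest to one of their own number. The numbers were not used for pairing. The cause of these changes was not tested beyond the libraries left out. In groups of 2 to 3 pools from 1 garden, the spread is estimated over all 28 groups.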

Other observations

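Among the untested members, HSFA6A was listed at 0 in 47 of 79 libraries and reached 1.65 and 0.74 in the Moj ex3 morning libraries. It was at 0.53 and 0.52 in the Vel ex3 morning libraries and listed at 0 in the Bon and Col-0 ex3 morning libraries. HSP26.5, a mitochondrial small heat shock protein, was listed at 0 in 60 of 79 libraries and was highest, at 1.76, in Vel ex3 morning replicate 1.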
